A study of Sus scrofa with 6 samples.

Results

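Transcripts of 6 genes of the egg coat and the egg membrane, ZP2, ZP3, ZP4, ASTL, CD9 and CD81, were followed in pig oocytes. The genes were matched by symbol to the Ensembl identifiers of the count files, and 6 of 6 symbols had a row among the 25880 genes listed. The libraries came from *Sus scrofa* oocytes at metaphase II (MII), the stage at which a sperm meets the egg, with 3 libraries of oocytes matured in vitro with malathion and 3 of control oocytes matured without it. Malathion, an organophosphate insecticide, was given in the maturation medium at 1 mM from a stock of 0.75 M in DMSO, and the labels do not say whether control medium held DMSO. All oocytes were aspirated from antral follicles of 3 to 6 mm in slaughterhouse ovaries, and the labels do not give the animals, the number of oocytes in a library or the culture it came from. The p-values therefore measure the spread between these libraries, which may be technical.

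The zona pellucida is the glycoprotein coat that the growing oocyte lays down around itself. In the pig it is built from the products of ZP2, ZP3 and ZP4, which share a zona domain that lets them join into filaments. Sperm bind this coat first and then the egg membrane below it. After fusion, cortical granules release ovastacin, the protease encoded by ASTL, which in the mouse cuts ZP2 and so ends sperm binding. CD9 and CD81 are tetraspanins of the egg membrane, and mouse eggs without them fuse poorly with sperm. A mature oocyte makes little new RNA, so transcripts of zona genes in it are mostly what is left of those made during growth.

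Total gene counts were 25816040 to 42312341 per library with malathion and 27105849 to 29471856 in the control, and levels are given as CPM, that is, counts scaled to these totals. Both replicate 3 libraries and control replicate 2 stood apart from the rest. The replicate 3 libraries detected 8492 genes (malathion) and 8344 genes (control), against 12211 to 14707 in the other 4, and control replicate 2 was the highest library for 54.7% of the 10678 genes tested. The summed level of 12 oocyte markers with a row was 82885, 58763 and 2412 CPM in malathion replicates 1, 2 and 3, and 76797, 29960 and 4177 CPM in control replicates 1, 2 and 3. Single genes weigh heavily in these sums. BTG4 alone had 44538 CPM in malathion replicate 1, and MOS alone had 1458 CPM in malathion replicate 3. The summed level of 13 markers of cumulus and granulosa cells, the somatic cells around the oocyte, ranged from 66.1 to 727 CPM with malathion and from 36.1 to 653 CPM in the control, and AMH and AMHR2 had 0 counts in each library. Most of each sum came from the cumulus transcripts VCAN and KITLG. For several fold changes and list splits, values without replicate 3 libraries or without control replicate 2 are also given. In bulk libraries, fewer cells with a transcript and less of it per cell cannot be told apart.

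ZP2 (ENSSSCG00000007851), the coat protein whose N-terminal region binds sperm in the mouse, stood at 547, 594 and 2158 CPM in malathion replicates 1, 2 and 3. In control replicates 1, 2 and 3 it stood at 554, 145 and 23.9 CPM. The malathion libraries were thus level with control replicate 1 or above it, and both other control libraries were lower than any malathion library. The groups overlapped, since malathion replicate 1 was just below control replicate 1. The highest level, in malathion replicate 3, was 90.5 times the lowest, in control replicate 3.

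ZP3 (ENSSSCG00000007691), the partner needed with the other coat proteins to form filaments, stood at 348, 417 and 1.35 CPM in malathion replicates 1, 2 and 3. In the control it stood at 352, 998 and 2.82 CPM in replicates 1, 2 and 3. Control replicate 2 was the highest library, and both replicate 3 libraries held very little, 57 counts with malathion and 83 in the control. The groups overlapped. The range from the highest to the lowest library was 741-fold, with the lowest value in malathion replicate 3.

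ZP4 (ENSSSCG00000010141), a coat protein kept in the pig and lost as a working gene in the mouse, stood at 3485, 4335 and 13.4 CPM in malathion replicates 1, 2 and 3. In control replicates 1, 2 and 3 it stood at 2884, 2175 and 99.0 CPM. Malathion replicates 1 and 2 were above every control library, and malathion replicate 3 was below every one. ZP4 therefore had both its highest and its lowest level among the malathion libraries, 325-fold apart.

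ASTL (ENSSSCG00000008126) stood at 14.0, 12.5 and 0.165 CPM in malathion replicates 1, 2 and 3, and at 15.5, 53.9 and 0.0679 CPM in control replicates 1, 2 and 3. As with ZP3, control replicate 2 was the highest library, and the replicate 3 libraries held 7 counts (malathion) and 2 counts (control). Malathion replicates 1 and 2 were slightly below control replicate 1, and the exact Poisson 95% intervals of malathion replicate 1 (12.6 to 15.5 CPM) and control replicate 1 (14.1 to 17.0 CPM) overlapped. Such intervals cover counting error only, because copies made by PCR are not independent molecules.

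CD9 (ENSSSCG00000022230) was close to the limit of detection in 5 of the 6 libraries. It had 19, 13 and 0 counts in malathion replicates 1, 2 and 3 (0.736, 0.468 and 0 CPM), and 9, 815 and 0 counts in control replicates 1, 2 and 3 (0.324, 30.1 and 0 CPM). Control replicate 2 held nearly all CD9 counts of the study. A count of 0 allows up to 3 counts, which is 0.0709 CPM in malathion replicate 3 and 0.102 CPM in control replicate 3. Outside control replicate 2, CD9 transcripts were detected at a low level in 3 libraries, and cumulus cells also express CD9. The cumulus markers summed to 425 CPM in control replicate 2 and to 653 CPM in control replicate 1. Most of this was VCAN (286 and 421 CPM) and KITLG (133 and 186 CPM). Of the 13 markers, 6 had 0 counts in control replicate 2 and 2 in control replicate 1. The part of cumulus RNA in the CD9 counts was not tested.

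CD81 (ENSSSCG00000039243) had 82, 75 and 0 counts in malathion replicates 1, 2 and 3 (3.18, 2.70 and 0 CPM). It had 53, 92 and 0 counts in control replicates 1, 2 and 3 (1.91, 3.39 and 0 CPM). CD81 varied less than CD9 among the 4 libraries with counts. Its Poisson 95% interval was 1.43 to 2.49 CPM in control replicate 1, the lowest of these, and 2.74 to 4.16 CPM in control replicate 2, the highest. These intervals did not overlap. It was not detected in either replicate 3 library.

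**Figure D1:**
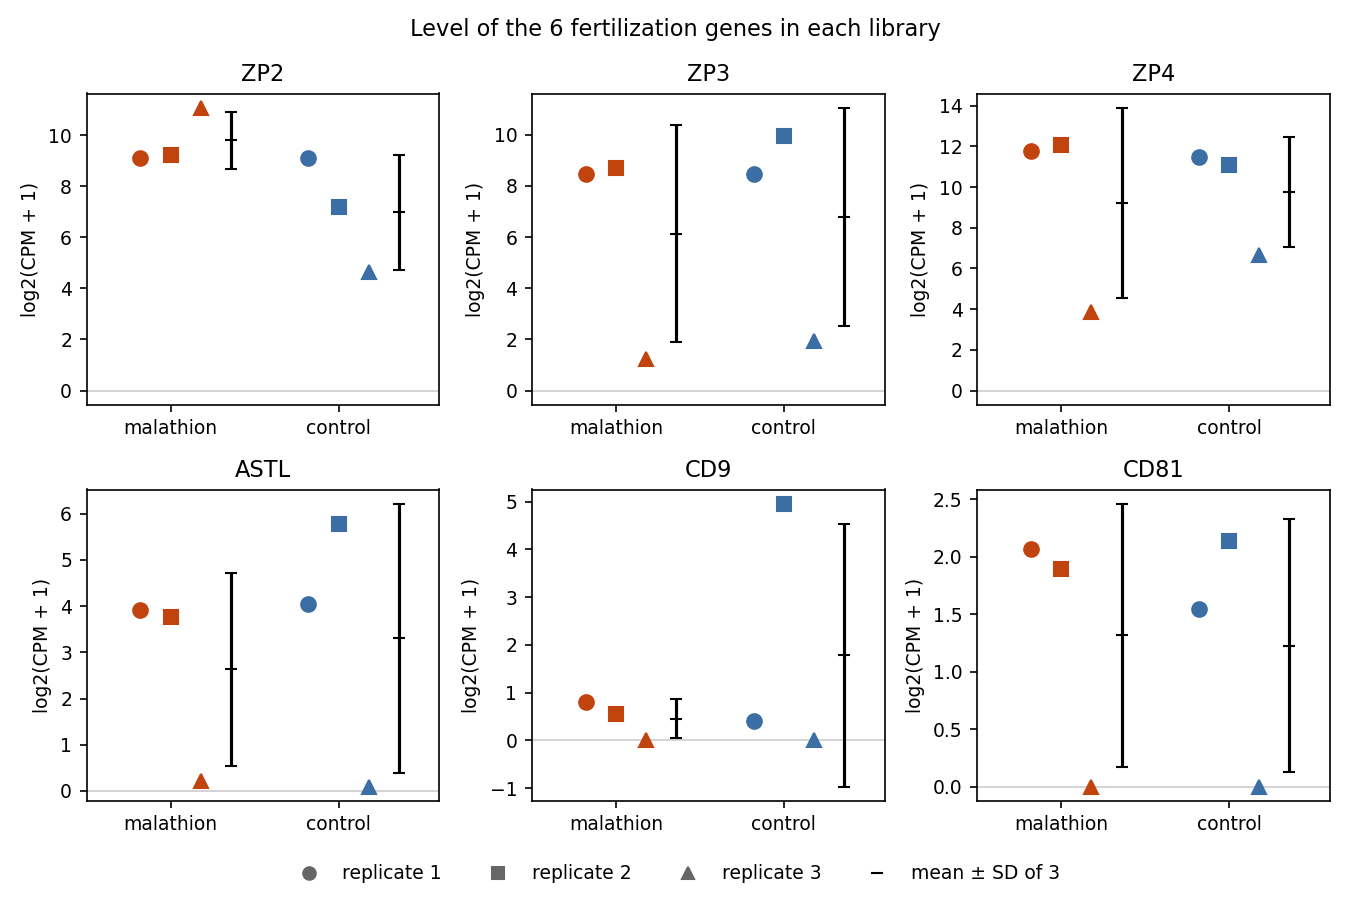
Level of each gene as log2(CPM + 1) in the 3 malathion libraries (left, orange) and the 3 control libraries (right, blue), with circles, squares and triangles for replicates 1, 2 and 3, and a bar for the mean and SD over each group. Triangles are the lowest points of both groups for each gene except ZP2, where the malathion triangle (2158 CPM) is the highest point, and the control square is the top point for ZP3, ASTL, CD9 and CD81.

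The test of malathion against control did not pass for any of the 6 genes, nor for any of the 10678 genes kept by the filter on low counts (0% called, edgeR's quasi-likelihood test, adjusted p of 0.99998 for each of the 6). Before adjustment, 110 genes had a p under 0.05, none of them among the 6. All 6 passed the filter. Every malathion library lay above every control library for 0 of the 6 genes (0.243% of all genes tested) and below for 0 of the 6 (0.506%), which is 0.749% of all genes in either direction. DESeq2 called 3 genes, KLF17, THRSP and ENSSSCG00000001951, which are named after their values were seen. KLF17 had 80.7 CPM in control replicate 2 and at most 0.136 CPM in any other library. THRSP had 1.73 CPM in control replicate 3 and 0 in every other library. ENSSSCG00000001951 was highest in control replicates 2 and 3 (334 and 266 CPM). Limma-voom called 0, with 3 genes under 0.05 before adjustment. ZP2 and CD9 had no p from DESeq2.

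ZP2 averaged 1099.8 ± 917 CPM with malathion and 241 ± 278 CPM in the control (SD, n = 3 each). The log2 fold change of ZP2, malathion minus control, was 2.19 ± 1.88 (SE), with a 95% interval from −1.49 to 5.87 (edgeR's quasi-likelihood test, adjusted p = 0.99998 over all genes). It kept a positive sign in each alternative that gave it a p, which leaves out DESeq2, but its size depended on single libraries. It was 1.24 without malathion replicate 3, 3.70 without control replicate 1, 0.71 without both replicate 3 libraries and 0.04 when control replicate 2 was left out as well. With TMM factors in place of library totals it was 5.18.

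ZP3 averaged 256 ± 223 CPM with malathion and 451 ± 505 CPM in the control (SD, n = 3 each), with a log2 fold change of −0.82 ± 1.82 (SE). The sign turned without control replicate 2 (0.53), and the value was −0.24 without malathion replicate 3. ZP4 averaged 2611 ± 2289 CPM with malathion and 1719 ± 1447 CPM in the control, with a log2 fold change of 0.60 ± 1.80 (SE). Its sign turned in the fit with replicate numbers as a block (−0.42) and with limma-voom (−0.70), and it was 0.02 without malathion replicate 2 and 0.05 without control replicate 3. The ZP4 value was 0.63 without both replicate 3 libraries and 0.44 when control replicate 2 was left out as well. The 95% intervals, from −4.38 to 2.74 for ZP3 and from −2.93 to 4.13 for ZP4, leave room for changes of several fold either way. All intervals given here come from the fit that takes no account of the replicate numbers.

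ASTL had a log2 fold change of −1.38 ± 2.12 (SE), from 8.91 ± 7.61 CPM with malathion and 23.2 ± 27.7 CPM in the control (SD, n = 3 each). Without control replicate 2 it was 0.19. CD9 had −4.65 ± 2.76 (SE), the smallest unadjusted p of the 6 (0.0922, edgeR's quasi-likelihood test over all genes), from 0.401 ± 0.373 CPM with malathion and 10.1 ± 17.3 CPM in the control. That difference rested on control replicate 2, and without this library the log2 fold change was 1.29. CD81 had 0.15 ± 2.60 (SE), from 1.96 ± 1.71 CPM with malathion and 1.77 ± 1.70 CPM in the control. Its sign turned without control replicate 3 (−0.44), malathion replicate 1 (−0.39) or malathion replicate 2 (−0.16).

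Fold changes depended on the scaling, and not by a shift common to all genes. From library totals to TMM factors ZP2 went from 2.19 to 5.18 and ZP4 from 0.60 to 0.37. The median log2 fold change over the 10678 genes was −0.33 with library totals and −0.08 with TMM factors, and 66.3% of genes had a negative value with library totals. Of the 6 genes 3 were above 0 and 3 below with both scalings, with a median of −0.34 on library totals and −0.05 with TMM factors, close to the medians of all genes.

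**Figure D2:**
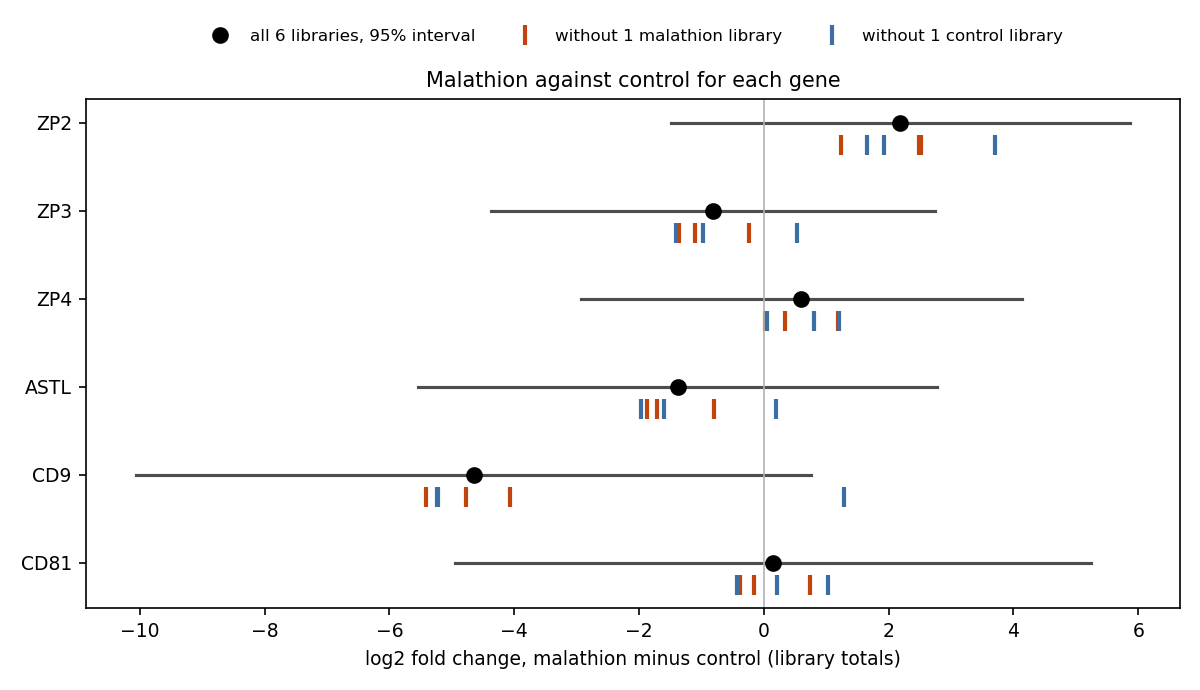
Log2 fold change of malathion against control for each gene on library totals, with the 95% interval from all 6 libraries (black point and line) and the values with 1 malathion library (orange ticks) or 1 control library (blue ticks) left out. Each interval crosses 0, and the lone blue tick to the right of 0 for ZP3, ASTL and CD9 is the fit without control replicate 2 (0.53, 0.19 and 1.29).

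The libraries with equal numbers were also set side by side, as log2 ratios of malathion to control in CPM plus 1. In replicates 1 the ratio was −0.02 for ZP2, −0.01 for ZP3, 0.27 for ZP4, −0.14 for ASTL, 0.39 for CD9 and 0.52 for CD81. The 3 zona genes and ASTL thus differed there by less than the median absolute ratio of all genes tested, 0.30. In replicates 2 the ratio was 2.02 for ZP2, −1.26 for ZP3, 0.99 for ZP4, −2.02 for ASTL, −4.40 for CD9 and −0.25 for CD81, against a median absolute ratio of 0.78. In replicates 3 it was 6.44 for ZP2, −0.70 for ZP3, −2.80 for ZP4, 0.13 for ASTL and 0 for CD9 and CD81. The median absolute ratio was 0.23 there, with 18.1% of genes tested at 0 counts in both libraries. The added 1 pulls ratios of low genes toward 0. This median therefore does not show that the replicate 3 libraries were more alike than other pairs. The zona genes did not move as a unit in replicates 2 or 3, where ZP2 was higher with malathion and ZP3 lower.

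The make-up of the zona transcripts within a library does not depend on its scaling, and it showed the same split. ZP4 held 79.6%, 81.1% and 0.615% of the summed ZP2, ZP3 and ZP4 counts in malathion replicates 1, 2 and 3, and 76.1%, 65.5% and 78.8% in control replicates 1, 2 and 3. ZP2 held 12.5%, 11.1% and 99.3% in malathion replicates 1, 2 and 3, and 14.6%, 4.38% and 19.0% in the control. ZP3 held 7.95%, 7.80% and 0.0620% with malathion, and 9.28%, 30.1% and 2.24% in the control, in the same order of replicates. Malathion replicates 1 and 2 and control replicate 1 were close to one another, malathion replicate 3 was almost all ZP2, and control replicate 2 was rich in ZP3. These shares weigh longer transcripts more, so they are compared only between libraries.

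Exact Clopper-Pearson 95% intervals of the shares were narrow next to these gaps, but they too cover counting error only. The ZP2 share of malathion replicate 3 had an interval of 99.3% to 99.4%, and that of control replicate 3, with the fewest zona counts (3705), of 17.7% to 20.3%. The 3 genes together made up 0.438%, 0.535% and 0.217% of all gene counts in malathion replicates 1, 2 and 3, and 0.379%, 0.332% and 0.0126% in control replicates 1, 2 and 3. The zona total of malathion replicate 3 was well above that of control replicate 3, and almost all of it was ZP2.

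The ratio of ZP4 to ZP3 counts was more even than either level. It was 10.01, 10.39 and 9.91 in malathion replicates 1, 2 and 3, with a 95% interval of 7.54 to 13.3 for replicate 3, where it rests on 565 and 57 counts. In control replicates 1, 2 and 3 it was 8.20, 2.18 and 35.2, with an interval of 28.3 to 44.3 for replicate 3. ZP4 and ZP3 were both low in malathion replicate 3 in the proportion seen in malathion replicates 1 and 2, while the ratio of ZP2 to ZP3 was 1602 there and 1.57 and 1.42 in malathion replicates 1 and 2. No test was made on these ratios, and their intervals cover counting error only.

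**Figure D3:**
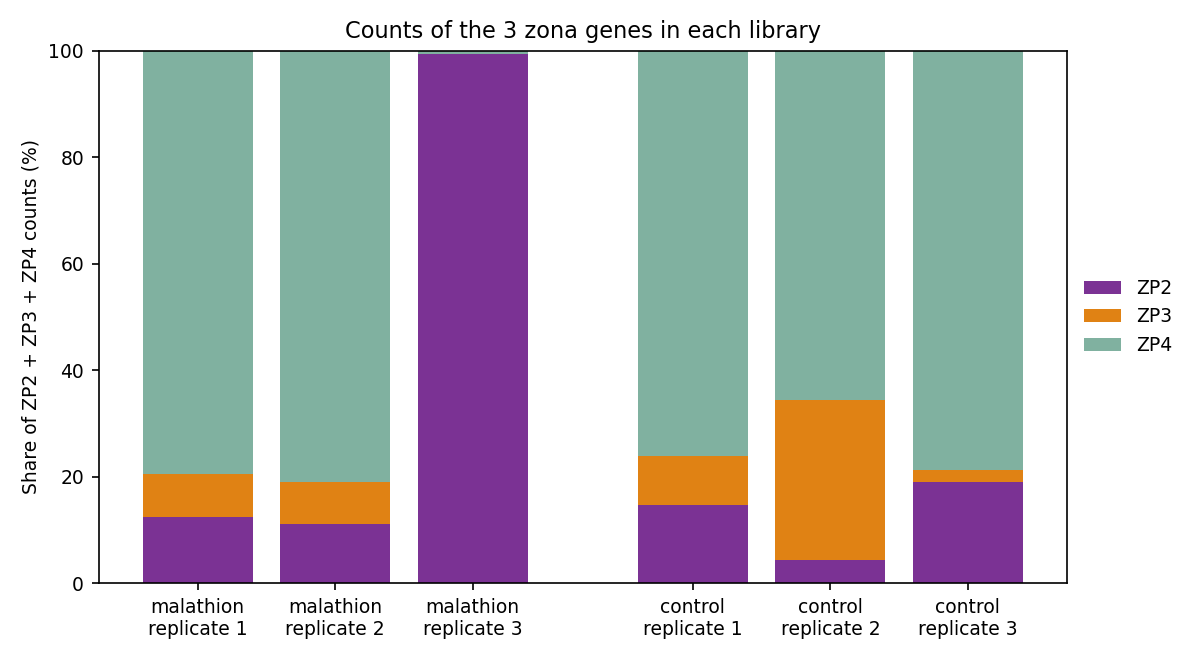
Share of ZP2 (purple), ZP3 (orange) and ZP4 (green) in the summed counts of the 3 zona genes, in percent, for the 3 malathion libraries (left) and the 3 control libraries (right). Malathion replicates 1 and 2 and control replicate 1 have similar bars, malathion replicate 3 is 99.3% ZP2, and control replicate 2 is 30.1% ZP3.

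Genes with a similar profile over the 6 libraries were looked up among named genes that averaged 10 CPM or more, by Pearson's r of log2(CPM + 1) as a measure of likeness only, since the replicate 3 libraries stand apart. ZP2 had the fewest close matches, with 0 of 4724 genes at an r of 0.99 or more. Its nearest was SCCPDH (r of 0.985), at 260, 286 and 1524 CPM in malathion replicates 1, 2 and 3 and 303, 101 and 26.8 CPM in control replicates 1, 2 and 3, followed by NR2C1 and PLRG1. ZP3 had 825 genes at that likeness, led by OAT, LYPD3 and TXLNG, and ASTL had 272, led by SF3B3, PHF21A and KMT2A. ZP4 had 63, led by DHX40, TMEM39A and LAMA3, and CD81 had 79 of 4725, led by SUB1, ITPK1 and SULT1C3. CD9 had 7, led by EMG1, TIMM8A and BID, and like CD9 these were high in control replicate 2, at 77.1 CPM for EMG1, 132.7 CPM for TIMM8A and 151 CPM for BID, against at most 1.98 CPM in any other library. For the zona genes and ASTL, the close matches were thus 825 of 4724 genes for ZP3, 272 for ASTL, 63 for ZP4 and 0 for ZP2. CD9 and CD81 averaged under 10 CPM themselves, so genes as low as these were left out of the comparison. Their numbers of matches therefore do not show how common their profiles are.

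Across the 6 libraries the SD of log2(CPM + 1) was 2.21 for ZP2, 3.82 for ZP3, 3.42 for ZP4, 2.30 for ASTL, 1.91 for CD9 and 1.01 for CD81, against a median of 1.56 over all genes tested. The SD of low genes is held down by the added 1. Other oocyte transcripts were also uneven in the replicate 3 libraries. GDF9, an oocyte growth factor, had 27.5 CPM in malathion replicate 3, against 259 CPM in control replicate 3. CCNB1, a cyclin of the meiotic divisions, had 6.59 CPM in malathion replicate 3, against 116 CPM in control replicate 3. BTG4, an adaptor of mRNA decay, had 521 and 2880.4 CPM in these libraries, and WEE2, an oocyte kinase, 47.0 and 102 CPM. These 4 transcripts were lower in malathion replicate 3 than in control replicate 3, whereas ZP2 was higher. Of the 12 oocyte markers, MOS, BMP15, NOBOX, OOSP2, ZAR1 and FIGLA were higher there too. GDF9, BTG4, WEE2, KPNA7, H1-8 and PADI6 were lower. MOS, the kinase of the MII arrest, had 1458 CPM in malathion replicate 3, against 2.85 CPM in control replicate 3, BMP15, a growth factor, 80.8 against 21.8 CPM, and the transcription factor gene NOBOX 54.2 against 0.170 CPM. MOS, BMP15 and NOBOX are named after their values were seen.

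A wider list of the egg coat held its glycoproteins, the ovastacin inhibitor gene FETUB, transcription factors of the growing oocyte and the convertases that trim secreted proteins. Of 20 symbols 16 had a row and 14 were tested, 8 with a higher and 6 with a lower fitted value after malathion, and 0 passed. The median log2 fold change was 0.12, against −0.33 for all genes, of which 66.3% were lower. With the replicate number as a block the split turned to 5 higher and 9 lower (median −0.51, against −0.25 for all genes), and with limma-voom it was also 5 to 9 (−0.56, against −0.30). Without control replicate 2 the split was 14 to 1 among 15 tested genes, when 21.0% of all genes were lower. Without both replicate 3 libraries it was 8 to 8 among 16 tested genes, with a median of −0.32, against −0.34 for all genes. OOSP2 (ENSSSCG00000039560), an oocyte-secreted protein, was one of the most strongly detected. It stood at 1399, 1514 and 104 CPM in malathion replicates 1, 2 and 3 and at 1471, 695 and 6.31 CPM in control replicates 1, 2 and 3, with a log2 fold change of 0.47 ± 1.80 (SE). FIGLA, the factor that switches on the zona genes in mouse oocytes, was detected at no more than 4.50 CPM in any library, a value chosen after it was seen.

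In the list of egg membrane and gamete fusion genes, 17 of 21 symbols had a row and 12 were tested. Of these 3 had a higher and 9 a lower fitted value after malathion, with 0 passing and a median log2 fold change of −0.49. Control replicate 2 was the highest library for 9 of the 12 genes (75.0%, against 54.7% of all genes tested), and without it 11 were higher and 1 lower, when 21.0% of all genes were lower. Without malathion replicate 3 the split was 6 to 7, with 45.5% of all genes lower, and without control replicate 3 it was 1 to 12, with 85.7% lower. The splits of the list moved with those of all genes. Of the 12 genes, 3 had 0 counts in both replicate 3 libraries. IZUMO1R (ENSSSCG00000014952), the egg receptor for the sperm protein IZUMO1, stood at 17.7, 15.2 and 0.331 CPM in malathion replicates 1, 2 and 3. In control replicates 1, 2 and 3 it stood at 19.6, 38.8 and 0.238 CPM, the order of libraries seen for ASTL (log2 fold change −0.82 ± 2.11, SE).

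CD63 (ENSSSCG00000000361), a tetraspanin of endosomes and a relative of CD9 and CD81, had more counts than either in every library. It stood at 31.7, 31.5 and 0.709 CPM in malathion replicates 1, 2 and 3 and at 24.8, 70.4 and 0.339 CPM in control replicates 1, 2 and 3 (log2 fold change −0.58 ± 2.00, SE). The integrin gene ITGA9 (ENSSSCG00000011245) stood at 13.2, 15.4 and 0.355 CPM with malathion and at 19.6, 23.6 and 0.611 CPM in the control (−0.60 ± 2.15, SE). IGSF8, whose product partners CD9 and CD81 in the membrane, had 0 counts in each library, and the tetraspanin genes CD151 and CD82 reached 32 and 44 counts in control replicate 2, with no more than 2 in any other library. These 3 genes are named after their values were seen.

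The list of genes for cortical granule release and the block to further sperm had 38 of 44 symbols with a row and 26 tested. Of these 5 had a higher and 21 a lower fitted value after malathion, 0 passed, and the median log2 fold change was −0.41, beside 66.3% of all genes lower and a median of −0.33. With TMM factors the split was 9 to 17, with 53.4% of all genes lower. Without control replicate 2 it was 17 to 9 and without malathion replicate 3 it was 16 to 13, with 21.0% and 45.5% of all genes lower in these fits. PADI6 (ENSSSCG00000003484), an enzyme of the oocyte cytoplasmic lattices, stood at 1419, 1326 and 2.91 CPM in malathion replicates 1, 2 and 3 and at 1429, 1505 and 7.91 CPM in control replicates 1, 2 and 3 (log2 fold change −0.10 ± 1.79, SE, and 0.090 with TMM factors). It was nearly level in the other 4 libraries and nearly absent from both replicate 3 libraries.

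RAB27A (ENSSSCG00000004612), a GTPase of secretory granules, was well detected in both replicate 3 libraries. It stood at 323, 339 and 109 CPM in malathion replicates 1, 2 and 3 and at 315, 553 and 449 CPM in control replicates 1, 2 and 3 (−0.77 ± 1.82, SE). SNAP23 (ENSSSCG00000038735), a SNARE protein of membrane fusion, stood at 207, 278 and 46.5 CPM with malathion and at 235, 374 and 63.6 CPM in the control (−0.34 ± 1.82, SE). CALR (ENSSSCG00000013746), a calcium-binding chaperone, had the smallest p of the list (0.343, unadjusted, edgeR's quasi-likelihood test over all genes). It stood at 14.4, 19.6 and 4.30 CPM with malathion and at 9.90, 70.4 and 66.3 CPM in the control, so control replicates 2 and 3 were high and the groups overlapped (−1.94 ± 2.04, SE).

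**Figure D4:**
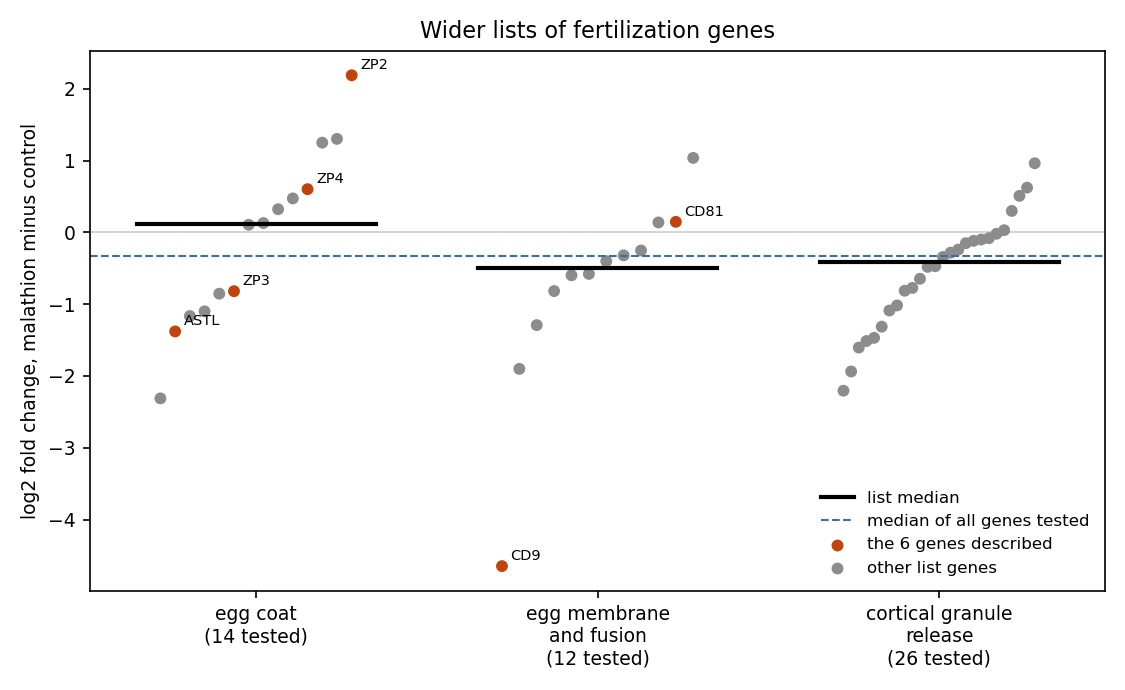
Log2 fold change of malathion against control for each tested gene of the 3 lists (points, ordered within a list), with the list median (black line) and the median of all genes tested (dashed line, −0.33). The 6 genes described are in orange and lie from −4.65 for CD9 to 2.19 for ZP2.

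**Figure D5:**
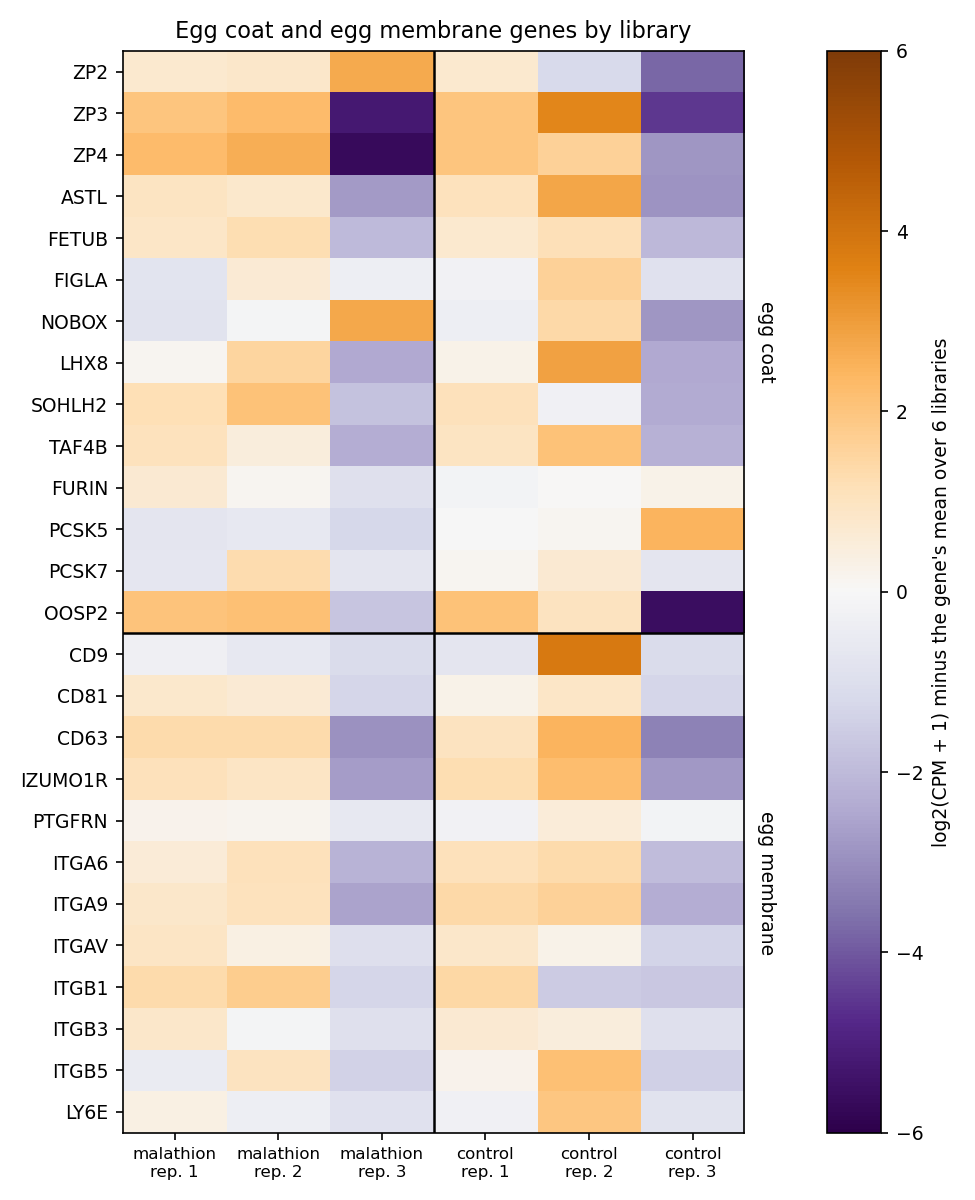
Level of the tested egg coat genes (upper block) and egg membrane genes (lower block) in the 3 malathion libraries (left) and 3 control libraries (right), as log2(CPM + 1) minus the mean of the gene over the 6 libraries. Columns of replicate 3 are mostly purple (below the mean), with ZP2 (2158 CPM) and NOBOX in malathion replicate 3 and PCSK5 in control replicate 3 among the exceptions, and control replicate 2 is the highest column for 9 of the 12 egg membrane genes.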

How the data were processed

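Per the labels' protocols, polyadenylated RNA was amplified by Smart-seq2, which marks no strand and uses no molecular identifiers. The deposited files hold raw read counts per Ensembl gene. The submitters' processing notes name HTSeq 0.9.1, STAR 2.5.3a and DESeq2 1.20.0. Build, annotation and use of strand are not given in the sources used here, so no coordinates are printed. Reads shared by near-identical or overlapping genes can be lost. The 5 summary rows of each file, 36.7% to 42.6% of its reads, were kept out. A name table gave symbols to 14857 identifiers.

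Malathion and control were compared over all genes with edgeR 4.0.16 (R 4.3.3, limma 3.58.1), quasi-likelihood F test, two-sided, on library totals without TMM factors (these spanned 0.138 to 3.57), so that fold changes follow from the CPM. The filter was filterByExpr (minimum count 10, total 15), with Benjamini-Hochberg adjustment and a threshold of 0.05. The test was checked on simulated data. Each gene was drawn independently there, so libraries that stand apart across many genes were not covered by that check. Alternatives were TMM factors, DESeq2 1.42.0, limma-voom, no filter, the replicate number as a block, and libraries left out. No 2 libraries were duplicates (chi-square per degree of freedom at least 56.9).

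The genes and lists were chosen with earlier results of these data known. Named besides the 6 genes were, per list, the 3 with the highest mean CPM and the one with the smallest p. The 3 most similar genes per member were also named, as were GDF9, BTG4, WEE2, CCNB1, VCAN and KITLG. A few others are marked as chosen after their values were seen. Across genes, the departures of 2 equally numbered libraries from the means of their groups were correlated (r = 0.467, 0.378 and 0.587 for numbers 1, 2 and 3). Unequal numbers were not compared in this way, and both replicate 3 libraries stood apart, so these values cannot show that the numbers pair the libraries. In log2 CPM, control replicate 1 correlated more with malathion replicate 2 (r = 0.972) than with malathion replicate 1 (r = 0.950). The numbers served as a block in an alternative fit only. The labels do not say what a number marks. Genes are not independent replicates.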

Additional observations from a re-analysis of the deposited data

How the results depend on the processing

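The count of genes called was 0 under library totals and under each alternative except DESeq2, which called 3 (THRSP, KLF17 and ENSSSCG00000001951). DESeq2 gave no p for ZP2, CD9, RAB27A and CALR, and its fold changes for these genes were not kept. With the replicate number as a block 0 genes were called, and the log2 fold change was 2.53 for ZP2, −2.25 for CD9, −0.42 for ZP4 (a turned sign) and 0.056 for CD63 (turned). The block changed no call. The spread left between libraries, as edgeR's common coefficient of variation, was 0.746 with the block and 1.56 without it. ZP4 also turned with limma-voom (−0.70), and PADI6 with TMM factors (0.090) and DESeq2 (0.035). Leaving out 1 library gave ranges of 1.24 to 3.70 for ZP2, −1.40 to 0.53 for ZP3, 0.02 to 1.199 for ZP4, −5.42 to 1.29 for CD9, −0.44 to 1.03 for CD81 and −1.96 to 0.19 for ASTL. The same range was −0.11 to 1.52 for OOSP2, −1.16 to 0.76 for CD63, −1.40 to 0.16 for IZUMO1R, −0.68 to 0.48 for PADI6 and −0.83 to 0.24 for SNAP23. Without control replicate 2 and both replicate 3 libraries, signs turned for ZP3 (0.12), CD9 (0.88), OOSP2 (−0.014), CD63 (0.35), RAB27A (0.072), SNAP23 (0.041) and CALR (0.78). That fit has 1 control library, assumed to vary like the malathion libraries. The causes were not tested. ZP2 kept its sign under each alternative that gave it a p, which leaves out DESeq2. CD9, CD81 and ASTL have at most 7 counts in either replicate 3 library, which limits the precision of their values there, although these libraries have the largest totals.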

Other observations

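FETUB and ZPBP2, outside the 6 genes, are given as values only, chosen after they were seen. FETUB (ENSSSCG00000011800), which encodes an inhibitor of ovastacin known as a liver product in the mouse, stood at 6.51, 8.50 and 0.0236 CPM in malathion replicates 1, 2 and 3 and at 5.76, 7.97 and 0 CPM in control replicates 1, 2 and 3. In the 4 libraries with more than 1 count it varied less than ASTL. Of 15 sperm genes listed as a check, 11 had a row and 7 of these had 0 counts in each library, among them IZUMO1 and the protamine genes PRM1 and PRM2. ZPBP2 (ENSSSCG00000017493), known for a zona-binding protein of the sperm acrosome, was the one of the other 4 with the most counts, with 600, 566 and 45 counts in malathion replicates 1, 2 and 3 and 492, 174 and 1 in control replicates 1, 2 and 3 (23.2, 20.4 and 1.06 CPM against 17.7, 6.42 and 0.0339 CPM).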
